A study of Mus musculus with 4 samples.

Results

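The 10 genes described here encode annexins (Anxa1, Anxa2, Anxa3 and Anxa5) and S100 calcium-binding proteins (S100a4, S100a6, S100a8, S100a9, S100a10 and S100a11). They were chosen by name, and every probe set to which the platform annotation gives exactly 1 gene symbol, that of one of these genes, was taken. That gave 14 probe sets for 9 of the 10 genes, out of 18193 genes with such a probe set on the array. S100a11 had none and was not analysed here. Where a gene had several, the brightest by mean log2 signal over the arrays stood for it. Of the 9 genes, 8 passed the filter on low signal and were among the 11749 genes tested, and S100a4 did not.

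Livers of AB6F1 males (AJ dam and B6 sire, n = 2) were compared with livers of B6AF1 males (B6 dam and AJ sire, n = 2), to ask which liver transcripts depend on which strain is the dam, in a series on nonalcoholic fatty liver disease. All 4 mice were 9 months old, ate chow and received no intervention, and each gave RNA from a whole liver slice to 1 Affymetrix array. Both crosses are first-generation hybrids with 1 AJ and 1 B6 copy of each autosome. By inheritance they differ in the X chromosome, the Y chromosome, the mitochondria and the parental origin of imprinted alleles. The strain of the dam that bore the mice differed as well, and its influence cannot be told apart from these. The source identifiers in the labels form a separate run for each cross, and handling and cross cannot be told apart. The deposited value of a probe set is a linear MAS5 signal, scaled so that every array has a trimmed mean of 500. The median signal over all probe sets was 78.0 and 75.9 on the AB6F1 arrays and 72.8 and 67.2 on the B6AF1 arrays. Albumin (Alb), the main secreted protein of hepatocytes, read 40788 and 38514 in AB6F1 livers and 40357 and 48625 in B6AF1 livers, a high signal on every array. The number of arrays limits the precision: an exact permutation test of 2 against 2 cannot give a p below 0.33 for any gene.

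Annexins are cytosolic proteins that bind phospholipid membranes when calcium rises, through repeated annexin domains. S100 proteins are small EF-hand proteins, mostly dimers, most of which change shape on binding calcium and then dock on partner proteins. The families meet in the complex of Anxa2 with S100a10, which sits under the plasma membrane, and S100a8 with S100a9 forms calprotectin, an abundant cytosolic complex of neutrophils and monocytes that is released in inflammation. In adult liver most of these genes are known mainly from biliary, mesenchymal, mesothelial and immune cells rather than from resting hepatocytes. In whole-slice RNA, a change in the number of cells of a type and a change in RNA per cell cannot be told apart.

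The S100 genes lie close together on chromosome 3. There the RefSeq annotation of assembly GRCm38.p6 places 13 genes named S100a with only a number after it. S100a7a, not among these, lies there too, between S100a6 and S100a8. S100a8 and S100a9 are direct neighbours with 0 other protein-coding genes between them, S100a5 alone separates S100a4 from S100a6, and S100a10 and S100a11 are neighbours farther along. Anxa5 is on chromosome 3 as well, apart from them, and Anxa1, Anxa2 and Anxa3 are on chromosomes 19, 9 and 5. RefSeq promoter sequences of GRCm38.p6 were matched for 8 of the 10 genes, Anxa3 and S100a10 being the others. The 250 bases upstream of the annotated start are shown for the 3 tested genes with the largest differences between the crosses, S100a8, Anxa2 and S100a9, read from the C57BL/6J reference and not from these mice. Capitals mark matches to 4 motifs, each searched on both strands. The TATA box was searched as TATAAA. Sites of the AP-1 factors Fos and Jun were searched with the letters TGANTCA, where N is any base. Sites of STAT factors, which act downstream of cytokine receptors, were searched with the letters TTCNNNGAA. Sites of C/EBP factors, which act in liver and myeloid cells, were searched with the letters TTGCNNAA.
S100a8 (chr3:90668821-90669070, plus strand): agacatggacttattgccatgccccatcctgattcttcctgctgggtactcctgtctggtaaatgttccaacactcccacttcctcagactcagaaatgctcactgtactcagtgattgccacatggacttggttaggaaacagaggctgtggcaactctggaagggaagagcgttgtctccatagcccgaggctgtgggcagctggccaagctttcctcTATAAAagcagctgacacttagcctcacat
S100a9 (chr3:90695722-90695971, minus strand): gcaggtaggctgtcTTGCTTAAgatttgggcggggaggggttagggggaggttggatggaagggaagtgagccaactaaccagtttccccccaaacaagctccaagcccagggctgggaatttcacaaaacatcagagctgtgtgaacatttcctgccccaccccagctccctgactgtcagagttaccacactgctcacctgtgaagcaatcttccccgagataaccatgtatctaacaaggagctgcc
Anxa2 (chr9:69453433-69453682, plus strand): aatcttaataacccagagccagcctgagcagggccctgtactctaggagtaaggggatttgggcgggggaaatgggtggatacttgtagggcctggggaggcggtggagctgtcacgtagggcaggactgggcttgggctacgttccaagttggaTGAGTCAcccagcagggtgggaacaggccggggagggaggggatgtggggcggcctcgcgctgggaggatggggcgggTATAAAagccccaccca
The S100a8 window held a TATA match that begins 30 bases before the start and the S100a9 window a C/EBP match that begins 236 bases before it, so these neighbouring genes shared no searched motif. The Anxa2 window held an AP-1 match 95 bases and a TATA match 17 bases before the start. Over the 32851 promoter windows of the same length in the table, 12.4% held TATAAA, 6.75% the AP-1 letters, 9.56% the C/EBP letters and 7.02% the STAT letters. Among the other matched genes, Anxa1 held a TATA and a C/EBP match, S100a4 a TATA match and S100a11 2 AP-1 matches, none of the matches overlapping another, and Anxa5 and S100a6 held no match to these letters in this window.

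All 9 measured genes had a higher mean signal in AB6F1 livers than in B6AF1 livers, but none of the 8 tested passed limma with Benjamini-Hochberg adjustment over all genes. Over all 11749 genes 25 passed, or 0.213%. Differences are given as AB6F1 minus B6AF1 on the log2 scale. Among the 8 tested genes they ran from 0.24 for Anxa3 to 2.68 for S100a8, with a median of 1.01, against a median of 0.02 over all tested genes. Positive differences made up 53.5% of all tested genes. At an unadjusted limma p under 0.05, 5 of the 8 were on the positive side (Anxa1, Anxa2, S100a6, S100a8 and S100a9), where 5.84% of all tested genes were. That count was 2 without the intensity trend, and 6 with quantile normalization, robust variance moderation or the replicate number as a block. Over all genes, in either direction, the count was 1142 in the main fit and 1044 without the trend. It was 1076, 1147 and 1106 in the other fits, in the order named. With 1 array left out, the median difference of the 8 genes ran from 0.65 to 1.18. The AB6F1 arrays lay above both B6AF1 arrays for 6 of the 8, and for 22.5% of all tested genes. S100a8 and S100a9 had B6AF1 means below the filter and passed it through their AB6F1 signals. With B6AF1 signals that low they could be tested only if their AB6F1 means were higher, so their signs were fixed among tested genes. The counts and the median above include both, and cover genes that passed a filter and not the whole set. The others at an unadjusted limma p under 0.05 were Anxa1, Anxa2 and S100a6. With no filter, 9 genes were tested, 0 passed and the median difference was 1.27.

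**Figure D1:**
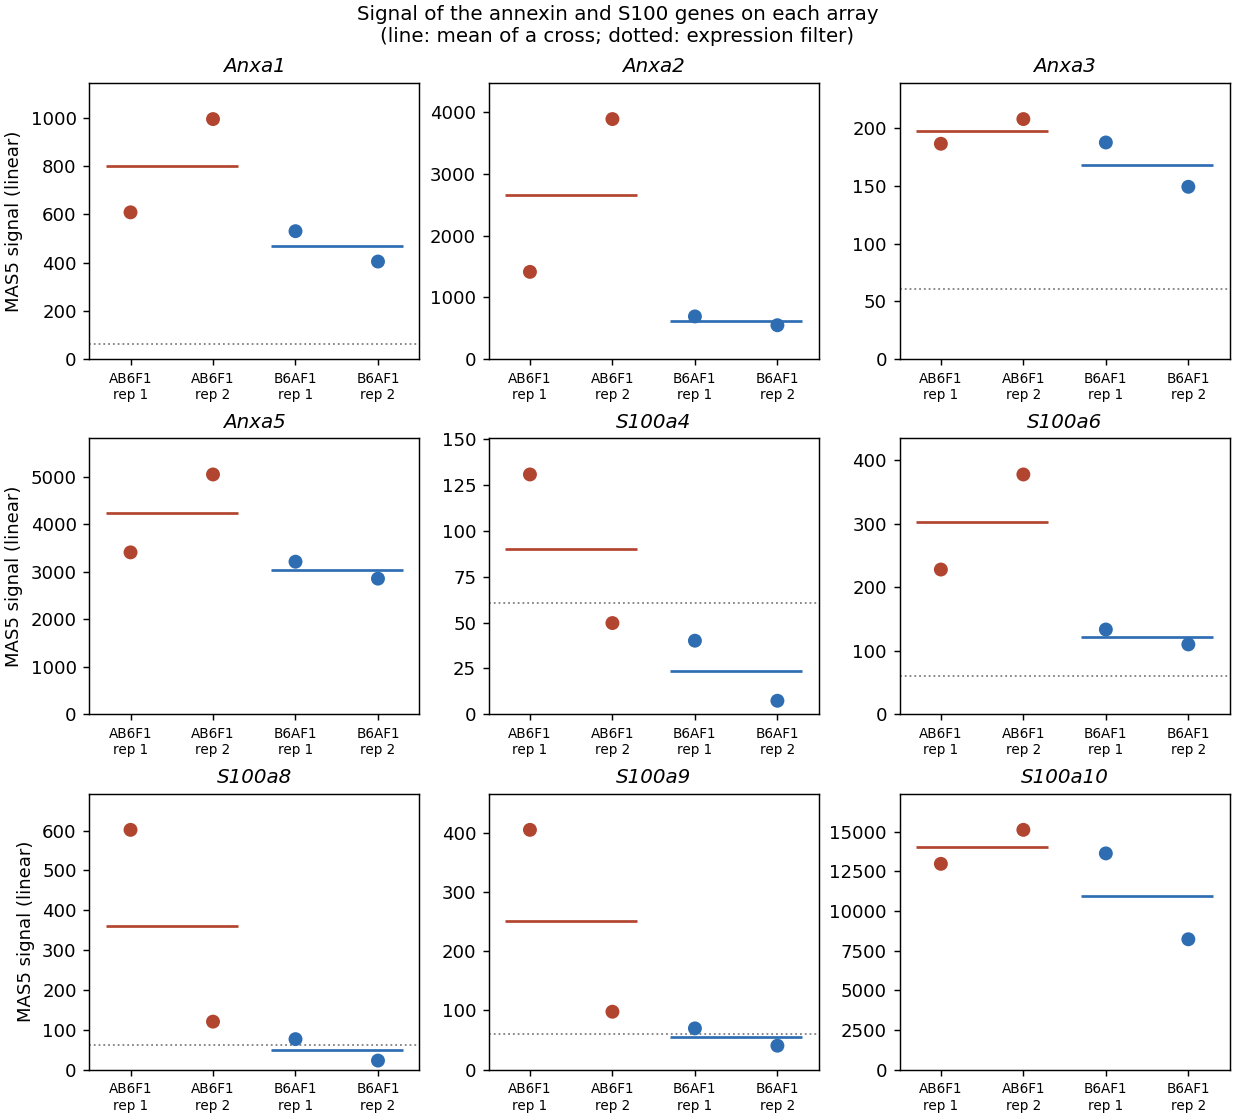
Linear MAS5 signal (vertical axis, from 0) of the probe set standing for each of the 9 measured genes on each array (points), AB6F1 in red and B6AF1 in blue. Horizontal lines are the means of the 2 arrays of a cross, and the dotted line, drawn where the scale allows, is the filter signal of 60.9. B6AF1 replicate 2, the array with the lowest median over all probe sets, is the lowest in all 9 panels. AB6F1 replicate 2 is the highest in 6 and AB6F1 replicate 1 in 3.

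The highest array was an AB6F1 array for every measured gene. AB6F1 replicate 2 gave the highest signal for 6 genes, namely all 4 annexins, S100a6 and S100a10. AB6F1 replicate 1 gave the highest signal for the other 3, S100a4, S100a8 and S100a9. B6AF1 replicate 2 gave the lowest signal for all 9, each read by the probe set that stands for it. That array also had the lowest median over all probe sets, 67.2 against 72.8 to 78.0 on the others. The share of all genes highest or lowest on each array was not computed. Between the highest and the lowest array the order varied: B6AF1 replicate 1 lay above AB6F1 replicate 1 for Anxa3 and S100a10 and below it for the other 7.

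Anxa2, the annexin that pairs with S100a10, read 1412 and 3889 in AB6F1 livers and 689.7 and 546.9 in B6AF1 livers. Both AB6F1 arrays were above both B6AF1 arrays, and the AB6F1 pair differed 2.75-fold between themselves. The log2 difference was 1.93 ± 0.42 (SE), a 3.82-fold higher signal, with a limma adjusted p of 0.225. By unadjusted p it ranked 136 of 11749. It was nearest to the threshold of these genes, and its call depended on which array was used: the limma adjusted p was 0.000721 without AB6F1 replicate 1 (log2 difference 2.66) and 0.0234 without AB6F1 replicate 2 (1.20), but above 0.05 without either B6AF1 array. With an AB6F1 array left out, the spread comes from the B6AF1 pair alone, which differed little for Anxa2. Its second probe set, with the suffix _x_at, read 128.3 and 319.1 in AB6F1 livers and 96.0 and 99.6 in B6AF1 livers. The highest was again AB6F1 replicate 2, and the log2 difference was 1.05 ± 0.47 (SE). The dimmest read at most 13.4 on any array and gave -1.32 ± 1.09 (SE), the opposite direction at a signal well under the filter.

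Anxa1, a glucocorticoid-induced annexin whose secreted form acts on formyl peptide receptors to limit neutrophil entry, read 608.3 and 995.3 in AB6F1 livers and 530.2 and 404.2 in B6AF1 livers. The crosses did not overlap, although AB6F1 replicate 1 lay closer to B6AF1 replicate 1 than to its own replicate. The log2 difference was 0.75 ± 0.27 (SE; limma adjusted p = 0.446), and without AB6F1 replicate 2 it was 0.39. Its other probe set read between 3.0 and 35.8 and carried no usable order.

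Anxa5, which binds phosphatidylserine, read 3412 and 5053 in AB6F1 livers and 3215 and 2859 in B6AF1 livers. Here too 1 array, AB6F1 replicate 2, stood above the other 3, and their log2 difference of 0.45 ± 0.19 (SE; limma adjusted p = 0.518) was 0.17 without it. Anxa3, an annexin known from human neutrophils, read 186.5 and 207.9 in AB6F1 livers and 187.6 and 149.2 in B6AF1 livers. These values overlapped, and the log2 difference was 0.24 with a limma 95% interval from -0.43 to 0.90. Leaving out B6AF1 replicate 2 gave 0.07, and leaving out B6AF1 replicate 1 gave 0.40.

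S100a6, also called calcyclin, a partner of the calcyclin-binding protein Cacybp, read 228.2 and 378.0 in AB6F1 livers and 133.7 and 110.2 in B6AF1 livers. Both AB6F1 arrays were above both B6AF1 arrays by more than the B6AF1 arrays differed. The log2 difference was 1.27 ± 0.33 (SE), or 2.42-fold, with a limma adjusted p of 0.32 and rank 239 of 11749. Leaving out AB6F1 replicate 2 gave 0.91, and leaving out AB6F1 replicate 1 gave 1.64.

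S100a10, the light chain of the Anxa2 complex, did not separate the crosses. Its brightest probe set, with the suffix _x_at, read 12982 and 15125 in AB6F1 livers and 13641 and 8227 in B6AF1 livers. The log2 difference was 0.40 with a limma 95% interval from -0.14 to 0.95 and a limma adjusted p of 0.623. Without B6AF1 replicate 2, the low array, it was 0.04. The second bright probe set read 6487 and 11091 in AB6F1 livers and 9300 and 5598 in B6AF1 livers, at 0.23 ± 0.29 (SE). It stood for S100a10 when probe sets of suffix _x_at or _s_at were left out. A dim further probe set read 77.5 and 182.3 in AB6F1 livers and 59.9 and 19.9 in B6AF1 livers, at 1.78 ± 0.78 (SE), so the probe sets of S100a10 had the same sign but not the same size. Whether Anxa2 and S100a10 differed in their response was not tested.

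S100a8, a calprotectin chain, read 601.9 and 120.7 in AB6F1 livers and 76.8 and 23.0 in B6AF1 livers. Signals did not overlap between the crosses, but the AB6F1 arrays differed 4.99-fold and B6AF1 replicate 2 lay below the filter signal of 60.9. The log2 difference of 2.68 ± 0.86 (SE; limma adjusted p = 0.408) had a limma 95% interval from 0.64 to 4.72, and was 2.27 after 16 was added to every signal. Its 1 probe set has the suffix _s_at, which can bind related transcripts.

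S100a9, the partner chain, read 404.8 and 97.9 in AB6F1 livers and 69.8 and 40.6 in B6AF1 livers. The order of the arrays was that of S100a8, with AB6F1 replicate 1 4.13-fold above AB6F1 replicate 2. The log2 difference was 1.90 ± 0.70 (SE; limma adjusted p = 0.463), and 1.65 with 16 added. Both calprotectin differences were smaller without AB6F1 replicate 1, at 1.52 for S100a8 and 0.88 for S100a9. Without AB6F1 replicate 2 they were 3.84 and 2.93, with only the higher AB6F1 array left.

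S100a4, a motility-associated S100 protein of fibroblasts and macrophages, read 130.6 and 49.7 in AB6F1 livers and 40.1 and 7.4 in B6AF1 livers. AB6F1 replicate 1 was the 1 array above the filter signal. Among all probe sets fitted separately its log2 difference was 2.23 ± 1.09 (SE; limma adjusted p = 0.733). In that fit 0 of the 14 probe sets passed, where 0.0866% of all 45037 did.

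**Figure D2:**
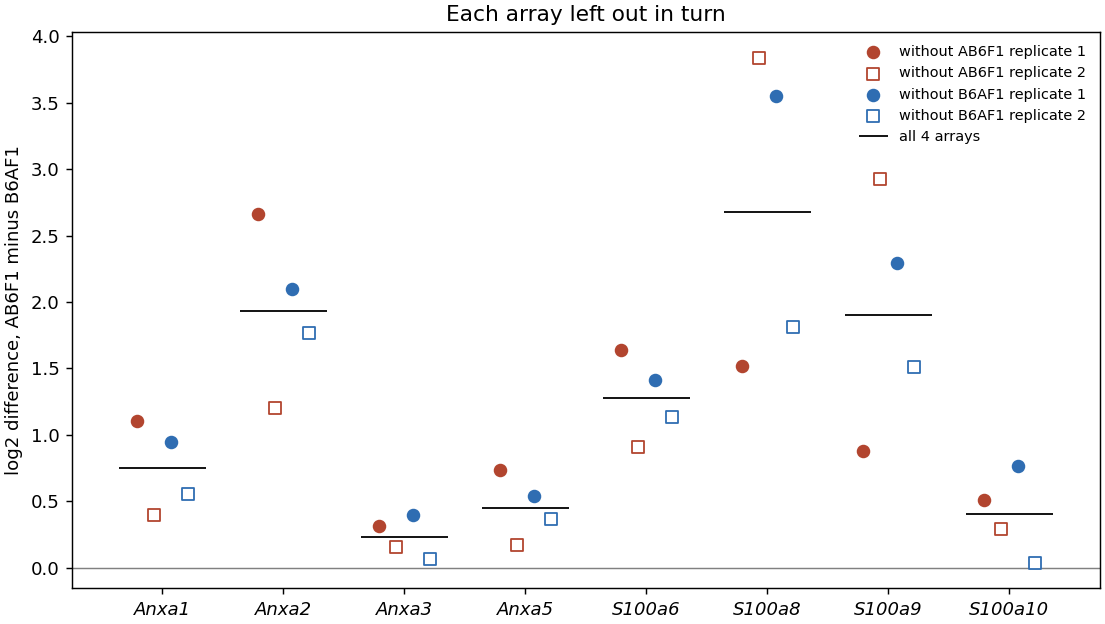
Log2 difference, AB6F1 minus B6AF1 (vertical axis), for the 8 tested genes with all 4 arrays (line) and with each array left out (points; red for an AB6F1 array left out, blue for a B6AF1 array). No point falls below 0, which could not be otherwise for the 6 genes whose arrays did not overlap between the crosses. Leaving out AB6F1 replicate 1 gives the lowest point for S100a8 (1.52) and S100a9 (0.88). Leaving out AB6F1 replicate 2 gives the lowest for Anxa1, Anxa2, Anxa5 and S100a6.

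Other genes of both families that could be tested had log2 differences from -0.40 to 0.27. Of 8 further annexins, 3 were tested, 2 positive and 1 negative, with 0 past the test (1 positive and 2 negative with each array centred on its median, where Anxa4 turned): Anxa6 was at 0.14 ± 0.13, Anxa4 at 0.08 ± 0.13 and Anxa7 at -0.14 ± 0.13 (log2 difference, SE). Of 10 further S100 genes, 4 were tested, 3 positive and 1 negative, again with 0 past the test; after the same centring S100a1 and S100a16 turned negative. S100a1, whose product is abundant in muscle, read 6758 and 6686 in AB6F1 livers and 6146 and 6421 in B6AF1 livers, a log2 difference of 0.10 ± 0.11 (SE). S100a13 was at 0.27 ± 0.19, S100a16 at 0.05 ± 0.13 and S100a5, which lies between S100a4 and S100a6, at -0.40 ± 0.44 (log2 difference, SE). Whether the described genes differ from these relatives as a group was not tested.

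**Figure D3:**
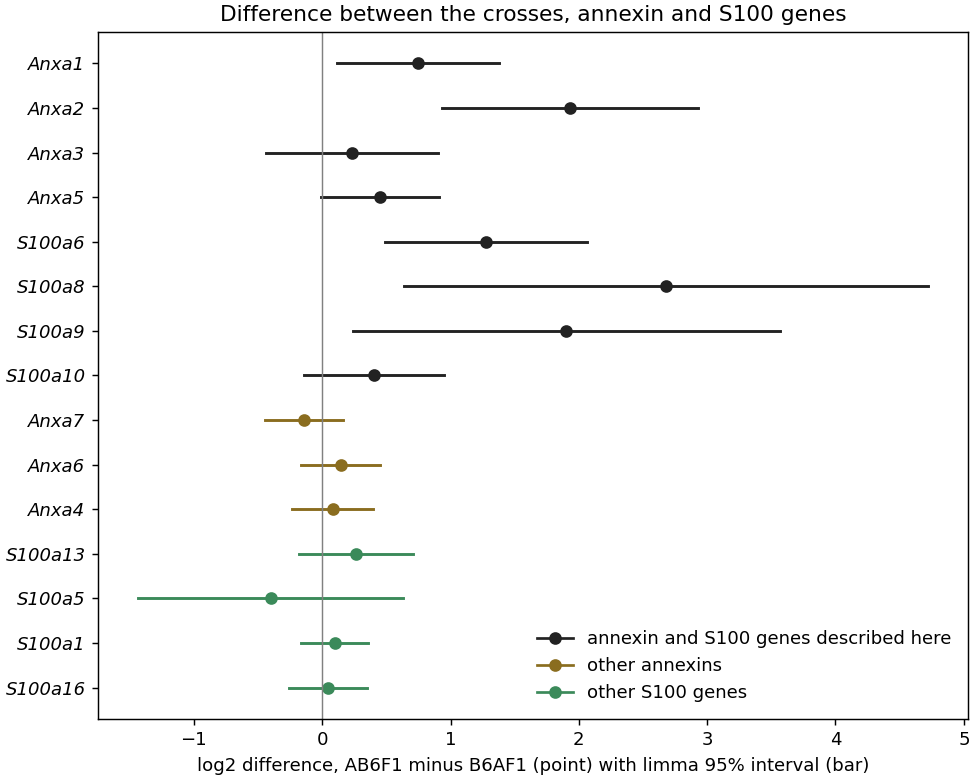
Log2 difference, AB6F1 minus B6AF1 (horizontal axis), with limma 95% intervals (bars) for the 8 tested genes, 3 other annexins and 4 other S100 genes. The intervals of Anxa1, Anxa2, S100a6, S100a8 and S100a9 lie above 0 before adjustment for the number of genes; those of the 7 relatives include 0.

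Among 14 known binding partners and receptors, 10 were tested, 8 positive and 2 negative (6 and 4 after centring), and 0 passed. The median log2 difference was 0.30. Ahnak, a giant scaffold protein bound by the Anxa2 complex, read 367.0 and 395.6 in AB6F1 livers and 174.8 and 219.6 in B6AF1 livers. Its log2 difference was 0.96 ± 0.23 (SE) at a limma adjusted p of 0.276, with close replicates in both crosses. Myh9, the non-muscle myosin heavy chain bound by S100a4, was at 0.29 ± 0.11, and Tlr4, a receptor for calprotectin, at 0.70 ± 0.35 (log2 difference, SE). Cacybp, the calcyclin-binding protein, was at 0.31 ± 0.13, and Hltf, a chromatin remodeller bound by the complex of Anxa2 with S100a10, at 0.54 ± 0.19 (log2 difference, SE). Plasminogen (Plg) and its activator Plat, both ligands of the Anxa2 complex, were at -0.10 ± 0.14 and -0.25 ± 0.53 (log2 difference, SE).

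Markers of cell types that carry these genes were set beside them. The summed signal of the 10 measured of 12 neutrophil markers was 7390 and 1706 in AB6F1 livers and 892 and 942 in B6AF1 livers, but most of the AB6F1 sums was Lcn2, a lipocalin that hepatocytes also secrete in the acute phase, at 6539 and 1107 in AB6F1 livers and 158.1 and 496.7 in B6AF1 livers. Without Lcn2, a choice made after its values were seen, the sums were 851 and 599 in AB6F1 livers and 734 and 445 in B6AF1 livers, which overlap. No marker is listed at 0; Camp and Mmp9 stayed below the filter signal on all 4 arrays, and Ngp, a neutrophil granule protein, read 76.4 and 106.5 in AB6F1 livers and 95.3 and 99.2 in B6AF1 livers. Il1b, a cytokine of neutrophils and macrophages, read 289.8 and 175.9 in AB6F1 livers and 162.1 and 127.1 in B6AF1 livers. Of the 10 measured neutrophil markers 4 were tested and 0 passed. Of these 4, 3 had positive differences and arrays that did not overlap. Over all tested genes 53.5% were positive, and 22.5% had both AB6F1 arrays above both B6AF1 arrays. Lcn2 was at 3.26 ± 0.83 and Csf3r at 1.28 ± 0.67 (log2 difference, SE).

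The summed macrophage markers had the same highest array as the calprotectin genes, as did the neutrophil, lymphocyte and cholangiocyte sums. The summed signal of 18 macrophage markers was 22795 and 14243 in AB6F1 livers and 9732 and 13016 in B6AF1 livers. Within B6AF1 this order was opposite to that of S100a8 and S100a9. Of 15 tested, 14 had positive differences with 0 past the test. The 1 negative marker was at -0.85, at an unadjusted limma p under 0.05, and its arrays did not overlap. Lyz2, a lysozyme of myeloid cells, was at 1.28 ± 0.26, and the galectin Lgals3 at 1.11 ± 0.27 (log2 difference, SE). Marco, a scavenger receptor, stayed below the filter signal on all arrays. The part of these cells in the S100a8 and S100a9 differences was not tested.

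The summed mesothelial, stellate and smooth muscle markers were highest in AB6F1 replicate 2, as were the annexins, S100a6 and S100a10. S100a4 was highest in AB6F1 replicate 1. The summed signal of 5 mesothelial markers was 608 and 1078 in AB6F1 livers and 335 and 377 in B6AF1 livers. Mesothelin (Msln) read 101.6 and 186.7 in AB6F1 livers and 47.1 and 53.0 in B6AF1 livers, or 1.46 ± 0.51 as log2 difference with SE (limma adjusted p = 0.431), and Lrrn4 was at 1.40 ± 0.48. All 4 tested mesothelial markers were positive, with 0 past the test. Msln lay below the filter signal on both B6AF1 arrays and passed the filter through its AB6F1 signals. With B6AF1 signals that low it could be tested only if its AB6F1 mean was higher, so its sign carries no information. Stellate and fibroblast markers summed to 17770 and 22162 in AB6F1 livers and 14173 and 13387 in B6AF1 livers; 12 of 14 were positive (11 after centring) and 2, Col3a1 and Col1a2, rose with limma adjusted p of 0.00931 and 0.0402, although Col1a2 itself was highest in AB6F1 replicate 1 (793.9 and 768.5 in AB6F1 livers against 308.8 and 294.4 in B6AF1 livers). Smooth muscle markers summed to 2282 and 2574 in AB6F1 livers and 2045 and 1871 in B6AF1 livers, with 4 of 4 tested positive (3 after centring) and 0 past the test; Acta2 was at 0.77 ± 0.22 and Tagln at 1.31 ± 0.63 (log2 difference, SE). Cholangiocyte markers summed to 820 and 791 in AB6F1 livers and 553 and 497 in B6AF1 livers, highest in AB6F1 replicate 1, with 4 of 4 tested positive and 0 past the test; Cd24a was at 1.27 ± 0.42 and Epcam at 0.60 ± 0.56 (log2 difference, SE). The part of these cells in the differences of Anxa1, Anxa2, Anxa5 and S100a6 was not tested.

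**Figure D4:**
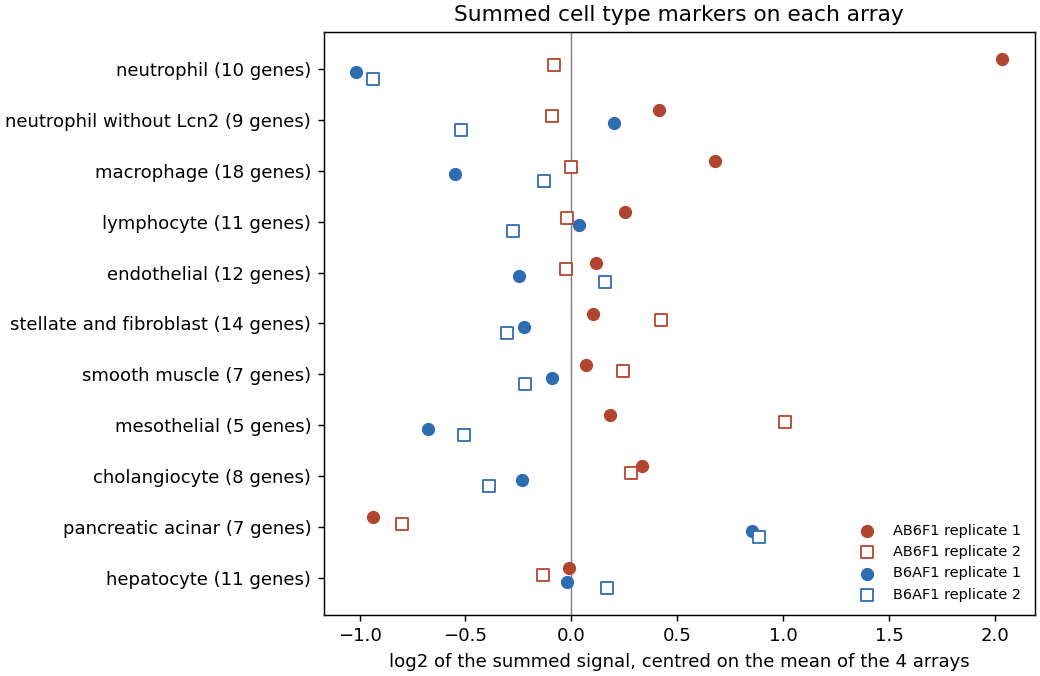
Log2 of the summed signal of each cell type marker list, centred on the mean of the 4 arrays (horizontal axis), with AB6F1 arrays in red and B6AF1 arrays in blue. AB6F1 replicate 1 is highest for the neutrophil, macrophage, lymphocyte and cholangiocyte lists, and AB6F1 replicate 2 for the stellate, smooth muscle and mesothelial lists. Without Lcn2 the neutrophil sums of the crosses overlap.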

How the data were processed

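Signals of 45101 probe sets on 4 arrays were used as deposited: a linear intensity made by the authors with MAS5 (version not given in the sources used here), per the submitters' processing notes. The values show that each array was scaled to a trimmed mean of 500; this hides any change common to all genes. Detection calls were not used here. Symbols came from the platform annotation and were updated through gene identifiers (34741 of 34945 single-symbol probe sets). Each gene was read by its brightest probe set, and genes with a mean log2 signal below the median, a signal of 60.9, were left out. Log2 signals of the deposited values, with no pseudocount, were tested with limma 3.58.1 in R 4.3.3 (lmFit, eBayes with an intensity trend; two-sided, Benjamini-Hochberg over all 11749 genes, threshold 0.05). SE are limma's moderated errors, and 95% intervals use them unadjusted. The fit was tested on simulated data. The genes and lists were chosen with earlier results of these data known. Named were all 10 genes, the family and partner genes of smallest p, the 2 markers of smallest p in each list and the 3 genes nearest in profile; Camp, Mmp9, Marco, Ngp, Il1b, Cel, Prss2, Plg, Plat, Tlr4, Cacybp and S100a16 were named after their values were seen. Alternatives were other scalings, filters, probe sets, an added 16, other variance moderation, a replicate block, a threshold of 0.1 and each array left out. The labels number the mice as biological replicates.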

Additional observations from a re-analysis of the deposited data

How the results depend on the processing

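None of the 8 tested genes changed sign under other settings: of 99 values 95 kept their side of the threshold and the other 4 gained a call, all with an AB6F1 array left out (Anxa2 with either, S100a8 and S100a9 without replicate 2). Other filters, other variance moderation and the replicate block leave the log2 difference itself unchanged, so no sign could turn there. Leaving out 1 array could not turn the 6 genes whose arrays did not overlap. Of 5 other probe sets 1 reversed, Anxa2's dimmest, at -1.32. The median of the 8 genes ran from 0.65 to 1.18 with arrays left out. Genes already apart stay apart when an array is removed, so that count is not given. Arrays stood apart for 5 of 8 genes with each array centred on its median and 5 of 7 without probe sets of suffix _x_at or _s_at. The share of all genes whose arrays stood apart was not computed for any alternative setting. With an array left out, the lone array of its cross was assumed to vary like the others. With the filter at the 75th percentile, which left 4 of these genes, the median was 0.60 and 3 stood apart. Over all genes, 25 calls became 50 with each array centred on its median, 0 without the intensity trend (1044 at an unadjusted p under 0.05), 62 with the replicate number as a block, 46 at a threshold of 0.1, and 1 to 242 with arrays left out (79 without AB6F1 replicate 1, 242 without AB6F1 replicate 2 and 1 without either B6AF1 array); the cause was not tested. Centring moves every gene's difference by 1 constant, here -0.14. The replicate block left 0 of the 8 called; deviations of same-numbered arrays had a correlation of -0.03 across genes, and the labels do not say that numbers pair mice. Signals near or below 60.9 (among them S100a4, and S100a8, S100a9, Msln and Gabrb2 in B6AF1) limit the size of those differences.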

Other observations

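Outside these families, the remaining marker lists differed in direction. Endothelial markers summed to 4912 and 4453 in AB6F1 livers and 3813 and 5058 in B6AF1 livers, with 6 of 10 tested positive (5 with each array centred on its median) and 0 past limma's adjusted threshold; Lyve1, a hyaluronan receptor of sinusoidal endothelium, was at 1.18 ± 0.39 and Cdh5 at 0.69 ± 0.23 (log2 difference, SE). Lymphocyte markers summed to 680 and 562 in AB6F1 livers and 585 and 471 in B6AF1 livers, with 2 of 4 tested positive. Cd8a was at -1.04 ± 0.69 and Cd79b at 0.54 ± 0.57 (log2 difference, SE). The AB6F1 mean of Cd8a, 47.6, lay below the filter signal, and it passed the filter through its B6AF1 signals. Its negative sign was therefore fixed among tested genes and carries no information. All 11 tested hepatocyte markers had negative differences (8 of 11 after quantile normalization) with 0 past the test, and their sums overlapped, at 402398 and 370177 in AB6F1 livers and 399433 and 455590 in B6AF1 livers. Cps1, the first urea cycle enzyme, was at -0.33 ± 0.12 and Tat, a tyrosine aminotransferase, at -0.60 ± 0.28 (log2 difference, SE). Pancreatic acinar markers summed to 2048 and 2245 in AB6F1 livers and 7061 and 7228 in B6AF1 livers, mostly through Cela1, which fell, at -2.10 ± 0.13 (log2 difference, SE; limma adjusted p = 0.00429); Cela3b was at 0.83 ± 0.30. Of the 5 tested acinar markers 4 were positive, but 2 after quantile normalization or median centring, where Cel and Prss2 turned negative.

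The 3 tested genes whose centred log2 values over the 4 arrays lay nearest to the mean of the 8 annexin and S100 genes were Gabrb2, Jag1 and Cog7. Jag1, a Notch ligand, read 263.3 and 265.0 in AB6F1 livers and 153.1 and 101.4 in B6AF1 livers. Cog7, a subunit of a Golgi tethering complex, read 535.3 and 500.4 in AB6F1 livers and 312.8 and 191.9 in B6AF1 livers. Gabrb2, a GABA receptor subunit, read 103.1 and 97.6 in AB6F1 livers and 51.6 and 36.4 in B6AF1 livers. Its B6AF1 signals lay below the filter signal, and it passed the filter through its AB6F1 signals. Their distances to that mean were 0.0655 for Gabrb2, 0.131 for Jag1 and 0.149 for Cog7 on the log2 scale over 4 arrays, and none of the 3 passed limma's adjusted threshold (adjusted p from 0.285 to 0.53). That mean was 0.63 and 0.57 in AB6F1 livers and -0.30 and -0.90 in B6AF1 livers, nearly level within AB6F1, whereas Anxa2 and S100a8 each had 1 leading AB6F1 array.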
